A study of Mus musculus with 4 samples.

Results

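The suppressors of cytokine signaling (SOCS) were examined in virgin mammary tissue of mice with and without *miR-21*. The family was taken as *Socs1* to *Socs7* and *Cish*, and a row of the deposited table belonged to it if any of its gene names was one of these. All 8 genes were found among the 22479 gene names of the table. *Socs1* and *Socs6* had 2 rows each, and the row with the higher mean level was kept. Rows were picked by name and mean level, not by the value of one genotype against the other. The family itself was chosen with earlier results of these data known. Poly(A) RNA came from mammary glands of 2 miR-21+/+ and 2 miR-21-/- mice, all 2 months old by the labels and all on a mixed 129SV::FVB/N::C57BL/6 background. The mutants lacked *miR-21* in every tissue, so the comparison does not separate epithelial from systemic effects, and no other allele or agent is named for either group. Levels are in FPKM, a measure of RNA abundance that corrects read numbers for exon length and for sequencing depth. The table gives a single FPKM for both mice of a genotype, so variation from mouse to mouse cannot be seen, no difference below has a replicate check, and no test was run.

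SOCS proteins act as brakes on receptors that signal through Janus kinases (JAKs) and STAT transcription factors. Each has an SH2 domain, which binds phosphorylated tyrosines, and a C-terminal SOCS box, which recruits elongins and a cullin ligase that marks bound proteins for degradation. Several of the genes are themselves switched on by STATs, which closes a feedback loop: *Cish* and *Socs2* are classical STAT5 targets downstream of prolactin and growth hormone, *Socs3* follows STAT3 and *Socs1* follows interferons. Prolactin and STAT5 drive alveolar development in the mammary gland, and STAT3 acts when the gland regresses after weaning.

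Because the comparison removes *miR-21*, the 3′ UTRs of the members were searched for its seed match. The mature strand is shown with its seed, bases 2 to 8, in capitals.
miR-21a-5p: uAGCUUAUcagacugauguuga
Bases pairing with this seed read ATAAGCT in a transcript, and an 8mer site has an A after them. Of 19915 mouse genes with an annotated 3′ UTR, 6.10% held ATAAGCT in the longest one and 1.74% held the 8mer. Among the members, *Socs5* held an 8mer and *Socs4* held a 7mer. The sites are shown in the direction of transcription with the seed match in capitals, because they are the only ATAAGCT matches in the longest annotated 3′ UTRs of the members.
Socs5 8mer: ctgtcagaATAAGCTAaatctaag
Socs4 7mer: tgtctgtaATAAGCTttcttgac
The *Socs5* site lies on the plus strand of mm9 at chr17:87536097-87536104, at base 1513 of a 3′ UTR of 2339 nt and inside the locus of the deposited table. The *Socs4* site lies on the plus strand at chr14:47915314-47915320, at base 4719 of a 3′ UTR of 5178 nt. It falls beyond the end of the deposited *Socs4* locus at 47912138. A weaker match, TAAGCTA, was found in *Socs7* and once more in *Socs4*, and 9.59% of all genes held at least 1 of the 3 site types. A match is a stretch of letters and not a measured site.

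The GAS motif, TTCNNNGAA, is the sequence bound by STAT dimers and reads the same on both strands. RefSeq promoters (GRCm38.p6, 250 bases before to 50 after a start site) were available for 4 members, *Cish*, *Socs1*, *Socs3* and *Socs4*, and were not used for *Socs2*, *Socs5*, *Socs6* and *Socs7*. The *Cish* promoter held 2 motifs that do not overlap and the *Socs3* promoter held 1. Those of *Socs1* and *Socs4* held none. Of 32851 mouse promoters of this length, 8.30% held at least 1 motif and 0.457% held 2 or more. The stretches with the motifs in capitals are shown because they hold all the motifs found in these 4 promoters. A link between the motifs and the ratios between the genotypes was not tested.
Cish: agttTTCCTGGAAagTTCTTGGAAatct
Socs3: gaaaccagccTTCTTAGAAgggaggggg
The *Cish* stretch matched mm9 once, on the plus strand at chr9:107198986-107199013. Its motifs begin at the start site and 11 bases after it, in an exon of 1 of the 6 annotated *Cish* transcripts. The *Socs3* stretch lies on the minus strand at chr11:117830817-117830844, with its motif at −154 from the start site and within an intron of 1 of the 3 annotated transcripts. None of the 4 promoters held the form with a spacer of 4 bases between TTC and GAA, which 6.95% of all promoters held.

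The SOCS transcripts lay at or below 12.0 FPKM in both genotypes, and *Cish* and *Socs3* had the highest ratios of miR-21-/- to miR-21+/+ tissue. The members lay between 2.05 and 9.31 FPKM in miR-21+/+ tissue and between 1.53 and 12.0 FPKM in miR-21-/- tissue. For comparison, the median over the 8702 named loci compared was 14.3 FPKM. Summed over the 8 genes, the family amounted to 49.0 FPKM in miR-21+/+ and 59.4 FPKM in miR-21-/- tissue, a ratio of 1.21. Of the members, 6 were higher and 2 lower in miR-21-/- tissue, where 3701 of the loci compared were higher and 5001 lower. The median log2 ratio was 0.20 for the members and −0.03 for all loci compared. The log2 ratio of the family sums and the members' median log2 ratio both fall below 0 if the columns are scaled to equal sums over all loci.

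*Cish*, which encodes the founding member CIS, stood at 3.31 FPKM in miR-21+/+ and at 6.23 FPKM in miR-21-/- tissue, 1.88 times as high (log2 ratio 0.91). It was the second lowest member in miR-21+/+ tissue. The annotated gene (ENSMUSG00000032578.6) has 3 coding exons on chromosome 9, and the deposited locus runs from 107199020 to 107204292. *Socs3*, the brake on the IL-6 family receptor subunit gp130, stood at 4.94 and 8.49 FPKM, 1.72 times as high (log2 ratio 0.78). By level it was number 6 of the members in miR-21+/+ and number 4 in miR-21-/- tissue. Its locus lies on chromosome 11 from 117827319 to 117830680, on the same chromosome as *Mir21* but 31.3 Mb away, and its coding sequence of 678 nt lies in 1 exon (ENSMUSG00000053113.3).

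*Socs5*, which has been linked to IL-4 and EGF receptor signaling, stood at 9.15 FPKM with *miR-21* and 12.0 FPKM without it, a log2 ratio of 0.40. It is the gene with the 8mer shown above, and it was the most abundant member in miR-21-/- tissue. *Socs4*, its closest relative in the family, was at 7.38 and 6.71 FPKM, with a log2 ratio of −0.14. The pair of genes with a 7-base seed match thus lay on opposite sides of 0 in the columns as deposited, and both below 0 with equal sums over all loci (−0.23 and −0.77). Both are coded in a single exon, on chromosome 17 from 87507019 to 87537875 and on chromosome 14 from 47896597 to 47912138.

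*Socs2*, the brake on growth hormone signaling and a STAT5 target whose RNA the study also followed in prolactin-treated HC-11 mammary cells, stood at 7.54 and 9.27 FPKM, 1.23 times as high in miR-21-/- tissue (log2 ratio 0.30). It was number 3 by level in both genotypes. *Socs6* was the most abundant member in miR-21+/+ glands and nearly level between the genotypes, at 9.31 and 9.45 FPKM (log2 ratio 0.02). *Socs7*, which lies 10.7 Mb from *Mir21* on chromosome 11, was at 5.35 and 5.70 FPKM (log2 ratio 0.09). The authors' table marks these 3 genes as FAIL, the word Cuffdiff gives when a numerical problem prevents its test, and marks the other 5 as OK. Of the 9714 named loci above 5 FPKM in at least one genotype, 10.4% were marked FAIL. The FPKM values of such loci are given as deposited.

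*Socs1*, the inhibitor of interferon and JAK signaling, was the scarcest member in both genotypes, at 2.05 FPKM with *miR-21* and 1.53 FPKM without it (log2 ratio −0.42). Its second row was at 0.816 and 0.575 FPKM (log2 ratio −0.50), and the table does not say how the rows differ. Both carry a locus on chromosome 16 from 10783901 to 10796916, although the annotated gene ends at 10785629. The second row of *Socs6* was at 0.425 and 0.437 FPKM (log2 ratio 0.04). Adding the rows left the log2 ratios of both genes in the same direction.

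**Figure D1:**
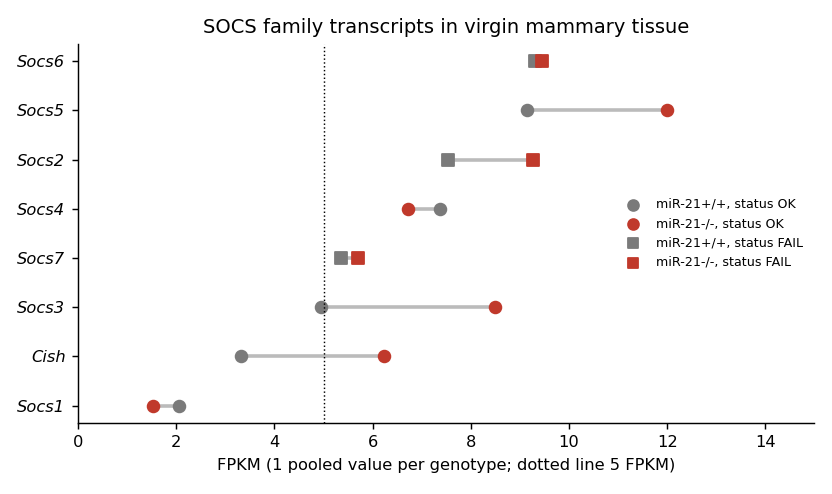
Levels of the 8 SOCS transcripts in FPKM, with 1 pooled value per genotype (grey, miR-21+/+; red, miR-21-/-) and no error because the table holds none. Squares mark genes listed as FAIL and the dotted line marks 5 FPKM, which *Cish* and *Socs3* exceeded only in miR-21-/- tissue, while *Socs1* stayed below it in both genotypes.

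No member reached a 2-fold difference between the genotypes. Of the 8 genes, 7 exceeded 5 FPKM in at least one genotype, the limit used in the study, and 4 of these were also marked OK, namely *Cish*, *Socs3*, *Socs4* and *Socs5*. Of these 4, *Cish* and *Socs3* passed only through their level in miR-21-/- tissue. At 2-fold or more, 0 of the 4 were higher and 0 were lower, where 1.33% of the 8702 named loci compared were higher and 1.51% lower. At 1.5-fold, *Cish* and *Socs3* were higher and none was lower, against 4.02% and 4.36% of the loci. At 5/4-fold *Socs5* was also higher and none was lower, against 8.56% and 11.5%. *Cish* and *Socs3* are in these counts only through their miR-21-/- level. With more than 5 FPKM required in both genotypes, only *Socs4* and *Socs5* remained, and neither reached 1.5-fold. All members lay below the median level of the loci compared, and among the 4351 loci up to that median 4.80% were at least 1.5-fold higher and 4.62% lower. Of the 4, those closest to the 1.5-fold limit were *Socs3* at 1.72-fold inside it and *Socs5* at 1.32-fold outside it, and *Socs1*, which did not pass the level limit, had a ratio of 0.749.

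**Figure D2:**
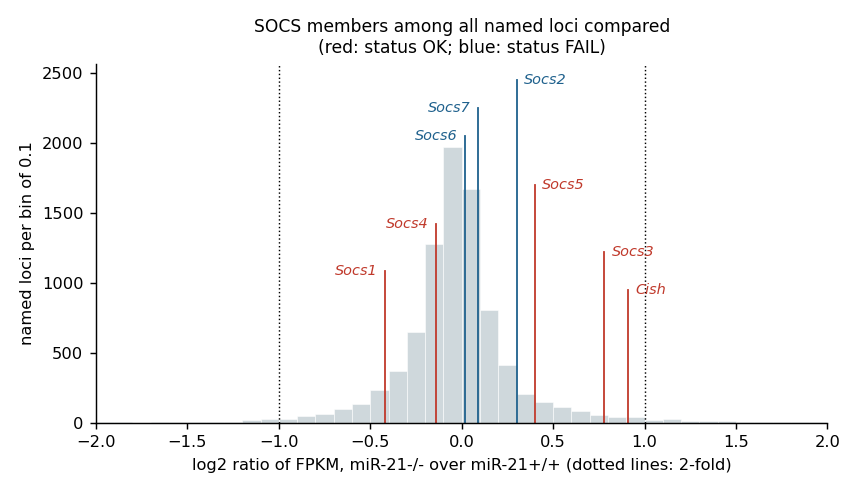
Number of named loci (status OK, more than 5 FPKM in at least one genotype) per bin of 0.1 in the log2 ratio of FPKM, with each SOCS member drawn as a line at its own ratio (red, status OK; blue, status FAIL). Line heights only separate the labels, dotted lines mark 2-fold, 61 of the 8702 loci lie outside the axis, and all 8 members fall between −0.42 and 0.91.

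Ratios between members within a genotype do not depend on how the FPKM columns are scaled. *Cish* transcripts were 1.62 times as abundant as those of *Socs1* in miR-21+/+ and 4.06 times as abundant in miR-21-/- tissue. These members had the highest and the lowest ratio between the genotypes, so no other pair could change more. *Socs1* also lay below 5 FPKM in both genotypes. Against *Socs4*, *Cish* went from 0.449 to 0.929 and *Socs3* from 0.669 to 1.27, so that *Socs3* passed *Socs4* in level. *Cish* relative to *Socs3* was 0.671 and 0.734, which places these 2 genes at nearly the same balance in both genotypes. *Cish* also gained on *Socs2*, the other STAT5 target of the family, which was marked FAIL, from 0.439 to 0.672. As shares of the family sum, *Cish* made up 6.76% with *miR-21* and 10.5% without it, *Socs3* 10.1% and 14.3%, and *Socs2* 15.4% and 15.6%. The share of *Socs5* was 18.7% and 20.3%. The shares of *Socs6* (19.0% and 15.9%), *Socs4* (15.1% and 11.3%), *Socs7* (10.9% and 9.60%) and *Socs1* (4.17% and 2.58%) were lower in miR-21-/- tissue. A share falls when other members rise, and the deposited FPKM of *Socs6* and *Socs7* was not lower.

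**Figure D3:**
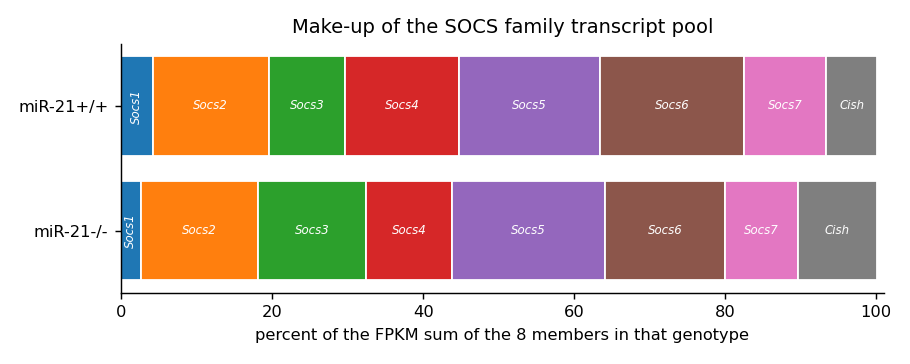
Share of each member, in percent, of the FPKM sum of the 8 SOCS genes in each genotype. The segments of *Cish* (6.76% and 10.5%) and *Socs3* (10.1% and 14.3%) are wider in miR-21-/- tissue, and that of *Socs2* is 15.4% and 15.6%.

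The scale of the columns decided on which side of 0 some members lay. Over all loci the FPKM sum was 759295 for miR-21+/+ against 1175603 for miR-21-/- tissue, whereas over named loci it was 380567 against 355385. The excess in miR-21-/- tissue thus lay in loci without a gene name. Scaling to equal sums over all loci shifts every log2 ratio by −0.63, and over named loci by 0.10. With equal sums over all loci *Cish* was at 0.28 and *Socs3* at 0.15, and the other 6 members were below 0. With equal sums over named loci *Cish* reached 1.01, past 2-fold, and *Socs3* 0.88. Centred on the median of named loci, *Cish* was at 0.94, *Socs3* at 0.81 and *Socs1* at −0.38. Neither of these scalings over named loci moved any member to the other side of 0. The order of the members by ratio is the same under any such scaling, with *Cish* first and *Socs1* last.

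**Figure D4:**
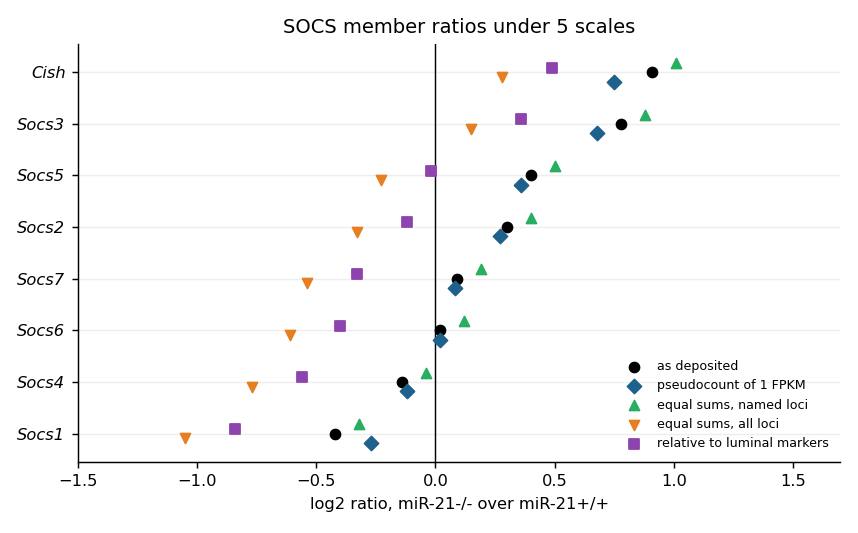
Log2 ratio of each SOCS member, miR-21-/- over miR-21+/+, as deposited, with a pseudocount of 1 FPKM, with the columns scaled to equal sums over named or over all loci, and relative to the median of the luminal epithelium markers. *Cish* and *Socs3* lie above 0 and *Socs1* and *Socs4* below 0 under all 5, while *Socs2*, *Socs5*, *Socs6* and *Socs7* change side.

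Cell type markers moved with the genotype, and fewer cells of a type cannot be told apart from less RNA per cell in whole tissue. All 8 luminal epithelium markers were higher in miR-21-/- tissue, with a median log2 ratio of 0.42 as deposited and −0.21 with equal sums over all loci, and a summed level of 645 and 864 FPKM. *Krt18* was at 148 and 216 FPKM and *Krt19* at 223 and 247 FPKM. All 4 basal markers measured on their own were higher too (median 0.61 as deposited and −0.02 with equal sums over all loci, sums 64.9 and 118 FPKM), with *Krt5* at 29.8 and 42.7 FPKM and *Oxtr* at 17.5 and 48.7 FPKM. Relative to the luminal median the log2 ratio of *Cish* was 0.49, that of *Socs3* 0.36 and that of *Socs5* −0.02, and relative to the basal median those of *Cish* and *Socs3* were 0.30 and 0.17.

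Lymphocyte markers were far lower in miR-21-/- tissue. All 9 T cell markers were lower, with sums of 48.4 and 11.2 FPKM, as were all 7 B cell markers measured on their own, with sums of 34.8 and 5.25 FPKM. *Lck* was at 8.41 and 2.13 FPKM, *Cd3g* at 7.70 and 1.65 FPKM and *Cd79b* at 12.3 and 2.88 FPKM, while *Cd79a*, listed with *Arhgef1*, was at 70.3 and 48.3 FPKM. The 3 genes listed as lymph node venule markers did not all lie on one side, and only *Glycam1* exceeded 5 FPKM. *Glycam1* was at 136 and 4.63 FPKM and *Chst4* at 0.571 FPKM and 0, whereas *Madcam1* was at 0.576 and 1.56 FPKM. Which cells of the whole tissue made the *Glycam1* RNA was not tested. *Socs1*, a gene with a well known role in lymphocytes, was lower by 0.42 on the log2 scale where the T cell sum was lower by 2.11. All 7 adipocyte markers were lower (median −0.48, sums 12301 and 8861 FPKM), with *Fabp4* at 7677 and 5523 FPKM and *Lpl* at 1319 and 871 FPKM. All 6 skeletal muscle markers were higher (sums 1162 and 1914 FPKM), with a median of 0.68 as deposited and 0.05 with equal sums over all loci. Macrophage (sums 567 and 520 FPKM), fibroblast (4623 and 4131 FPKM) and endothelial markers (134 and 139 FPKM) differed less in the columns as deposited. Among them *Lyz2* was at 381 and 319 FPKM, *Col3a1* at 1999 and 1654 FPKM and *Col1a2* at 933 and 852 FPKM. *Cdh5* was at 43.8 and 47.3 FPKM and *Pecam1*, marked FAIL, at 39.7 and 43.7 FPKM. *Cd68*, listed with *Eif4a1* and *Senp3* at 255 and 252 FPKM, was left out of the macrophage sum. Other macrophage markers, named after their values were seen, differed more. *Cd14* was at 25.4 and 42.7 FPKM and *Cd163*, marked FAIL, at 35.6 and 26.0 FPKM. The part of these differences in cell make-up in the SOCS ratios was not tested. The markers of mammary epithelium and fat that define the labelled tissue were present in both genotypes.

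Upstream of the SOCS genes, the receptors whose signals they limit were mixed. Of 35 cytokine receptors, 19 passed the limits above, 7 of them higher and 12 lower in miR-21-/- tissue. Their median was −0.13 as deposited and −0.76 with equal sums over all loci. As deposited, 1 of them was past 2-fold, against 2.84% of all loci. That gene was *Il4ra*, the receptor of IL-4 and IL-13, at 10.4 and 28.2 FPKM (log2 ratio 1.43). *Osmr*, the oncostatin M receptor that pairs with gp130, was at 11.8 and 19.1 FPKM (0.70), and *Il15ra* was at 33.0 and 21.6 FPKM (−0.61). *Il2rg*, the shared chain of lymphocyte receptors, was listed together with *Gm614* at 19.2 FPKM in miR-21+/+ and 10.0 FPKM in miR-21-/- tissue (−0.94). The most abundant receptors were the growth hormone receptor *Ghr*, at 237 and 184 FPKM, and the interferon gamma receptor *Ifngr1*, at 68.7 and 56.5 FPKM. The prolactin receptor *Prlr*, named here after its values were seen, was at 31.5 and 43.2 FPKM (0.46).
Of 28 ligands of these receptors only leptin (*Lep*) passed the limits, at 27.7 and 67.9 FPKM (1.29). *Cntf* was listed with 2 other genes at 28.0 and 26.5 FPKM, and *Prl*, *Epo*, *Il3* and *Il9* were listed at 0 in both genotypes.

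The kinases and the STATs reported here differed by less than 2-fold wherever they passed the limits. The median of the 4 STATs that passed was 0.27 as deposited and −0.36 with equal sums over all loci. *Jak1* was at 47.5 and 46.5 FPKM, *Jak2*, the kinase of the prolactin receptor, at 13.8 and 17.0 FPKM, *Tyk2* at 9.60 and 8.49 FPKM, and *Jak3*, listed with *Insl3*, at 15.6 and 13.7 FPKM. *Stat3* was at 36.6 and 57.3 FPKM (log2 ratio 0.64). It is the factor best known for inducing *Socs3*. *Stat5a* was at 22.8 and 39.0 FPKM (0.78) but was marked FAIL, and *Stat5b* was at 20.5 and 26.0 FPKM (0.34). *Stat6*, the IL-4 factor, was at 27.2 and 31.3 FPKM (0.20), and *Stat2* was at 18.4 and 14.9 FPKM (−0.31). *Stat4*, a factor of lymphocytes, was at 1.42 and 0.510 FPKM (−1.48) and did not pass the minimum.

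Other genes induced by STAT5, by STAT3 or by interferon gave 3 different pictures. For STAT5, 4 of 11 target genes were higher and 7 lower, with a median of −0.14 as deposited and −0.77 with equal sums over all loci. *Elf5*, the alveolar transcription factor, was at 18.6 and 36.0 FPKM (log2 ratio 0.95), whereas the milk protein genes *Wap* (7.09 and 2.54 FPKM, −1.48) and *Csn2* (14.8 and 7.21 FPKM, −1.04) and the kinase gene *Pim1* (20.9 and 12.4 FPKM, −0.75) were lower. The most abundant of the list, *Csn3* and *Akt1*, were at 73.2 and 79.0 FPKM and at 52.9 and 51.1 FPKM.
For STAT3, 9 of 9 target genes that passed were higher as deposited, where 3701 of the 8702 loci compared were higher, with a median of 0.30 that turned to −0.33 with equal sums over all loci. *Mcl1* and *Myc*, named after their values were seen, were nearly level at 0.01 and 0.05 but count as higher. As deposited, the medians of the luminal and basal epithelium markers were above that of this list, at 0.42 and 0.61. *Lrg1*, an acute phase glycoprotein gene, was at 64.2 and 222 FPKM (1.79), *Fos* at 6.95 and 13.0 FPKM (0.90) and *Lcn2* at 88.8 and 109 FPKM (0.30), and *Osmr* belongs to this list as well. *Socs3*, which was not in the list, was at 0.78 as deposited and at 0.15 with equal sums over all loci.
For interferon, 6 of 6 genes that passed were lower, with a median of −0.29, where 5001 of the 8702 loci compared were lower. *Irf1* was at 28.1 and 25.2 FPKM, *Gbp2* at 29.5 and 24.3 FPKM, *Tap1* at 19.9 and 16.2 FPKM, and the immunoproteasome genes *Psmb8* and *Psmb9* at 45.4 and 39.9 FPKM and at 27.1 and 21.4 FPKM. The chemokine genes *Cxcl9* and *Cxcl10* were at 9.68 and 7.26 FPKM and at 2.02 and 3.08 FPKM, the latter below the minimum. *Socs1* was at −0.42. With equal sums over all loci the interferon median was −0.92, and with equal sums over named loci the STAT3 and interferon medians were 0.40 and −0.19. The lists were written with earlier results of these data known, so these counts are descriptions. A link between any SOCS gene and these lists was not tested.

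The partners and the other brakes of the pathway were close to level in the columns as deposited. The 4 genes of the ligase that reads the SOCS box were all slightly lower, from 112 to 104 FPKM for elongin B (*Tceb2*), 33.7 to 30.6 FPKM for elongin C (*Tceb1*), 8.67 to 8.64 FPKM for *Cul5* and 42.2 to 41.6 FPKM for *Rnf7*, with a median of −0.06. Among the other inhibitors of JAK and STAT signaling, 3 were higher and 5 lower, with a median of −0.03. *Ptpn6*, the phosphatase SHP-1 of blood cells, was the only one past 1.5-fold, at 16.0 and 10.1 FPKM (−0.67). *Ptpn1*, *Ptpn2* and *Ptpn11*, which encode phosphatases found in most cells, were at 17.3 and 19.2, 11.4 and 11.0, and 31.5 and 33.0 FPKM. The SUMO ligase genes *Pias1*, *Pias2*, *Pias3* and *Pias4* had log2 ratios of 0.09, −0.07, −0.18 and −0.02, and the adaptor gene *Sh2b3*, marked FAIL, had −0.13. With equal sums over all loci the median of the ligase genes was −0.69 and that of the inhibitors −0.66.

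**Figure D5:**
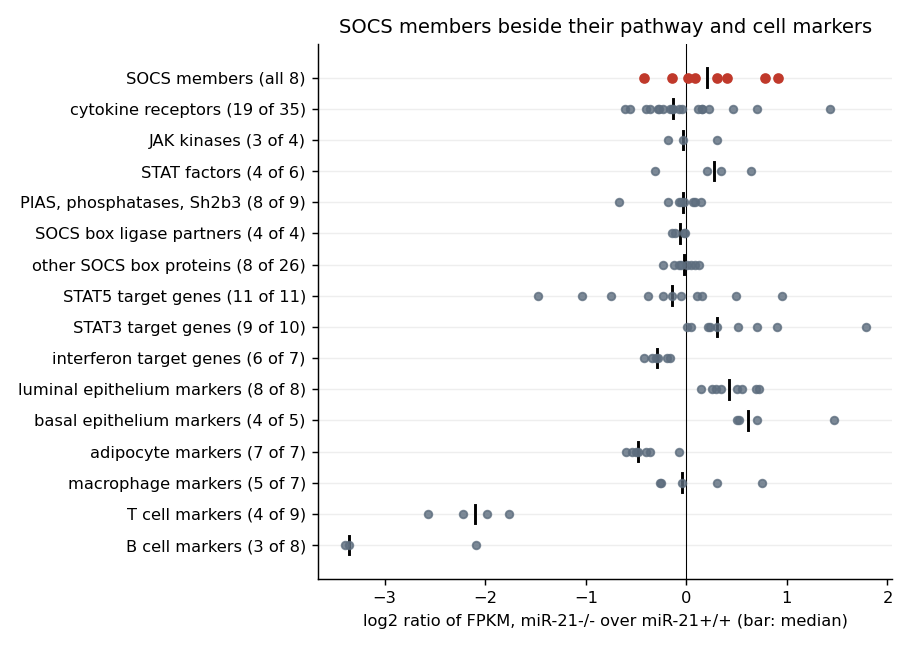
Log2 ratios of FPKM, miR-21-/- over miR-21+/+, for all 8 SOCS members (red) and for the genes of each pathway or marker list that passed the limits (grey points, with the number that passed of the number listed); black bars mark medians. In the columns as deposited the SOCS median is 0.20, the STAT3 target genes lie at or above 0, the interferon target genes below 0, and the T and B cell markers below −1.

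The loci around the members were mostly close to level in the columns as deposited. Of the 31 nearest named loci that passed the limits, at most 2 on each side of each member, 0 were at least 1.5-fold higher and 2 were at least 1.5-fold lower, against 4.02% and 4.36% of all loci compared, and their median log2 ratio was −0.08 against −0.03. *Mapkapk3* and *Hemk1*, which flank *Cish*, had ratios of 0.28 and −0.04, and *Pgs1*, next to *Socs3*, had 0.14. On the other side of *Socs3* lay the 2 lower loci, the mitosis gene *Birc5* at −0.79 and the thymidine kinase gene *Tk1* at −0.95. These neighbours were picked by position. The targeted locus itself, listed as *Mir21* with *Vmp1*, was at 42.5 and 68.2 FPKM, which is the long host transcript and not the mature microRNA, so it does not check the genotypes.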

How the data were processed

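Poly(A) RNA libraries of 4 mice were sequenced on a HiSeq 2000 as single-end reads. The authors aligned them to mm9 with TopHat and estimated FPKM with Cufflinks (CASAVA is also named in the submitters' processing notes). Versions, gene annotation and normalization options are not given in the sources used here. The deposited Cuffdiff table holds 1 FPKM value per genotype for 30506 loci, of which 22483 carry a gene name, so no value per mouse was used and the planned model across mice was not run. Read counts and depth are unknown from FPKM, and no counting interval was computed. The deposited status column, a word per locus without a unit or other scale, is reported. The columns of the authors' own comparison (fold change, test statistic, p-value, q-value and call) were not used, and the number of other columns with values per sample was 0.

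Log2 ratios were computed from the deposited FPKM without a pseudocount. Counts cover loci with a name, status OK, more than 5 FPKM in at least one genotype and values above 0 in both, the level limit being the study's. Its fold limit of 2 was used, with 1.5 and 5/4 as alternatives. One row per name was kept (highest mean FPKM), and loci that merge other genes were left out of list counts. Named genes were all SOCS members, all genes of lists of up to 9, for longer lists at most 4 past 1.5-fold and the 2 most abundant, and the 2 most abundant of each marker list, apart from some picked by position, *Chst4* as a marker listed at 0, and those said to be chosen after their values were seen. The members and lists were chosen with earlier results of these data known. Marker-centred ratios, the second rows and the loci up to the median level were added after seeing the data. Start coordinates were raised by 1, since 7398 annotated gene starts matched after this and 424 as printed. GENCODE of mm9 gave transcripts and 3′ UTRs, and RefSeq (GRCm38.p6) the promoters and miR-21. The planned comparison of SOCS proteins was not run. A further pathway gene is not reported here. On simulated data over 8451 loci all 200 planted ratios were recovered. They were planted without noise in loci more abundant than any member, so this checks the calculation and not the precision of the SOCS ratios. Python 3.11.15, numpy 2.4.6, pandas 2.3.3 and matplotlib 3.10.9 were used.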

Additional observations from a re-analysis of the deposited data

How the results depend on the processing

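No paired analysis was possible because values of single mice were not used here, and no mouse could be left out in turn for the same reason. Precision at these low FPKM is unknown, and a ratio was taken as moved when it changed by more than 0.1 on the log2 scale. With equal sums over all loci the ratios were −1.05 for *Socs1*, −0.33 for *Socs2*, 0.15 for *Socs3*, −0.77 for *Socs4*, −0.23 for *Socs5*, −0.61 for *Socs6*, −0.54 for *Socs7* and 0.28 for *Cish*. Relative to the luminal markers they were, in the same order, −0.84, −0.12, 0.36, −0.56, −0.02, −0.40, −0.33 and 0.49, and relative to the basal markers −1.03, −0.31, 0.17, −0.75, −0.21, −0.59, −0.52 and 0.30. A pseudocount of 1 moved *Socs1* to −0.27 and *Cish* to 0.75. The other 40 of the alternatives for single members moved no ratio beyond that limit. Members past 2-fold went from 0 to 1 higher with equal sums over named loci, and with limits of 1.5-fold and 5/4-fold to 2 and 3. Over all named loci, 116 were at least 2-fold higher and 131 lower (47.0% of calls higher). These counts were 28 and 814 (3.33%) with equal sums over all loci, 158 and 107 (59.6%) with equal sums over named loci, 266 and 325 above 1 FPKM, 447 and 518 without a minimum, 53 and 53 above 5 FPKM in both genotypes, 350 and 379 at 1.5-fold, 745 and 997 at 5/4-fold, and 76 and 84 among loci up to the median level. The ligand list, with *Lep* alone above the minimum at 1.29, had medians of −0.30 above 1 FPKM and −0.12 without a minimum. The changed counts follow from the limit or scale itself.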

Other observations

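Some targets and relatives of the SOCS proteins outside cytokine receptors were also measured. Among 8 genes for tyrosine kinases and insulin receptor substrates that have been linked to SOCS proteins, 6 passed the limits, 4 of them higher and 2 lower in miR-21-/- tissue, with a median log2 ratio of 0.24. That median was 0.04 with any status and −0.39 with equal sums over all loci. *Kit*, the stem cell factor receptor, was at 20.1 and 35.9 FPKM (0.84), and *Irs1*, the insulin receptor substrate, was at 16.2 and 24.9 FPKM (0.61). *Irs2* was at 16.7 and 16.6 FPKM, *Egfr* at 20.0 and 19.8 FPKM and *Ptk2* at 12.9 and 13.4 FPKM. *Igf1r* was at 5.10 and 6.88 FPKM (0.43), *Insr*, marked FAIL, at 17.2 and 14.3 FPKM (−0.27), and *Flt3*, below the minimum, at 1.09 and 0.465 FPKM (−1.23).

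Of 26 other genes coding for proteins with a SOCS box, 8 passed the limits, 4 higher and 4 lower. As deposited their median was −0.02, with 0 past 1.5-fold, and with equal sums over all loci the median was −0.65. The most abundant were *Spsb3*, listed with *Mrps34* and *Nme3*, at 40.3 and 38.9 FPKM, and *Wsb1*, marked FAIL, at 21.5 and 26.6 FPKM. Several muscle members of the ASB family lay below the minimum and were named after their values were seen: *Asb2* was at 2.46 and 4.84 FPKM and *Asb11* at 1.06 and 2.39 FPKM, beside the skeletal muscle markers *Acta1* (328 and 526 FPKM) and *Ckm* (214 and 338 FPKM).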
